A study of Quercus lobata with 12 samples.

Results

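In the leaves of valley oak (Quercus lobata) seedlings, 447 genes differed between 5-Azacytidine and control seedlings in one direction in the maternal family LAY-15 and in the other direction in the family YORK-09. They were chosen on these measured values. Counts were divided by the total of each seedling and scaled to CPM (counts per 1000000 counts), and the ratio of treated over control was taken with 0.5 CPM added to both. A gene belonged to the set when its mean was at least 1 CPM over the 12 seedlings and its ratio was at least 1.5-fold in one direction in both pairs of LAY-15 and at least 1.5-fold in the other direction in both pairs of YORK-09. Of the 39373 genes in the table, 21522 had a mean of at least 1 CPM. In 122 of these (0.567%), treated LAY-15 seedlings were higher and treated YORK-09 seedlings lower. In 325 (1.51%), treated LAY-15 seedlings were lower and treated YORK-09 seedlings higher. Because the ratios chose the genes, those ratios are given as a description without a test.

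Polyadenylated leaf RNA was sequenced from 12 seedlings, 2 treated and 2 control in each of the families LAY-15, YORK-09 and HV-11. Treated seedlings were sprayed with 50 µM 5-Azacytidine in TWEEN 20 and control seedlings with TWEEN 20 alone, for 27 days, starting when all were 5 months old and after all had been pruned back. The acorns were wild collected and open pollinated, so seedlings of a family share a mother and mostly are half-siblings, and the families were picked by the study for large phenotypic differences. RNA was extracted on October 16, 19 or 30, and each treated seedling had a control seedling of its family extracted on the same day, which gave 6 pairs: days 30 and 19 in LAY-15, days 30 and 16 in YORK-09, and days 30 and 19 in HV-11. Totals ran between 9926728 and 11570198 counts per seedling, so a count of 1 was close to 0.1 CPM. The LAY-15 pair of day 19 stood apart: on the first principal component, which held 29.8% of the variance, the treated seedling LAY-15-34 lay at 76.5 and the control LAY-15-30 at 136.5, while the other 10 seedlings lay between -50.6 and 10.4. With its ratio left out, the other 3 ratios selected 269 or 274 genes with treated LAY-15 higher and 560 or 556 with treated LAY-15 lower, depending on which of its seedlings also left the mean.

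DNA methylation in plants sits on cytosines in CG, CHG and CHH contexts, and is copied onto the new strand after replication or placed again by RNA-directed methylation. 5-Azacytidine is a cytosine analog that is built into nucleic acids and traps the methyltransferases, so that methylation is lost as cells divide. In plants, methylation over transposons and promoters is known to go with silencing, whereas CG methylation in gene bodies is common in genes that are steadily expressed. The table lists genes by identifier only, and the reference gene table matched 0 of the identifiers, so no function, marker of a cell type or sequence is given for any gene. The leaf label therefore could not be set against leaf markers. Fewer cells of a type and less RNA per cell cannot be told apart in whole leaves.

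Among the genes with treated LAY-15 higher and treated YORK-09 lower, QL02p054412 had the largest change when genes were ranked by the smallest of their 4 folds, which was 4.40-fold. It had 41.0 CPM (day 30) and 95.7 CPM (day 19) in treated LAY-15 seedlings, against 8.16 and 21.4 CPM in the controls of the same days. In YORK-09 it had 21.0 CPM (day 30) and 5.93 CPM (day 16) in treated seedlings, against 165 and 28.4 CPM in the controls. Treated and control seedlings did not overlap in LAY-15, with the treated ones higher, or in YORK-09, with the treated ones lower. The YORK-09 control of day 30 stood far above that of day 16. The mean log2 ratio was 2.2 in LAY-15 and -2.56 in YORK-09. The selection did not use the HV-11 ratios. In HV-11 QL02p054412 had 52.6 and 97.6 CPM in treated seedlings at days 30 and 19, against 109 and 151 CPM in controls. That difference, a log2 fold change of -0.74 (SE 0.46), did not pass edgeR's quasi-likelihood test (adjusted p = 1.00).

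QL08p061117 had the highest mean CPM of the 447 genes, 9393 CPM, not corrected for gene length. In LAY-15 it had 8958 CPM (day 30) and 18767 CPM (day 19) in treated seedlings, against 5181 and 2989 CPM in controls. In YORK-09 it had 6366 CPM (day 30) and 3980 CPM (day 16) in treated seedlings, against 20394 and 6520 CPM in controls. The treated and control ranges did not overlap in LAY-15 or YORK-09, and the YORK-09 gap was narrow, since 6366 CPM in a treated seedling lay just under 6520 CPM in a control. In HV-11 it had 5404 and 7985 CPM in treated seedlings at days 30 and 19, against 13511 and 12665 CPM in controls, a log2 fold change of -0.92 (SE 0.79, edgeR adjusted p = 1.00). With up to 214242 counts in a seedling, counting error was negligible beside the spread between seedlings.

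Among the genes with treated LAY-15 lower and treated YORK-09 higher, QL05p018111 led by the smallest of the 4 folds, at 3.97-fold. It was a low gene, with 6 (day 30) and 9 (day 19) counts in treated LAY-15 seedlings, against 159 and 46 in controls, and with 62 (day 30) and 40 (day 16) counts in treated YORK-09 seedlings, against 6 and 7 in controls. The HV-11 pairs went in opposite directions, with 15 counts in the treated seedling against 259 in the control at day 30, and 49 against 26 at day 19. The HV-11 fit gave a log2 fold change of -2.03 (SE 1.28, edgeR adjusted p = 1.00), which turned to 0.40 without the HV-11 control of day 30.

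QL01p037319 had the highest mean CPM of the genes with treated LAY-15 lower and treated YORK-09 higher, 858 CPM. It had 515 CPM (day 30) and 748 CPM (day 19) in treated LAY-15 seedlings, against 992 and 1659 CPM in controls, and 1190 CPM (day 30) and 1139 CPM (day 16) in treated YORK-09 seedlings, against 573 and 520 CPM in controls. Treated seedlings averaged 632 ± 165 CPM and controls 1325 ± 471 CPM in LAY-15, and treated seedlings averaged 1165 ± 36.2 CPM and controls 546 ± 37.8 CPM in YORK-09 (SD, n = 2 each), so the spread within a treatment was wider in LAY-15. These values chose the gene. In HV-11 the treated and control seedlings overlapped, with 658 and 877 CPM against 478 and 942 CPM, and the log2 fold change was 0.15 (SE 0.53, edgeR adjusted p = 1.00). Its sign turned when the HV-11 treated seedling of day 19 or the control of day 30 was left out (-0.15 and -0.30).

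**Figure D1:**
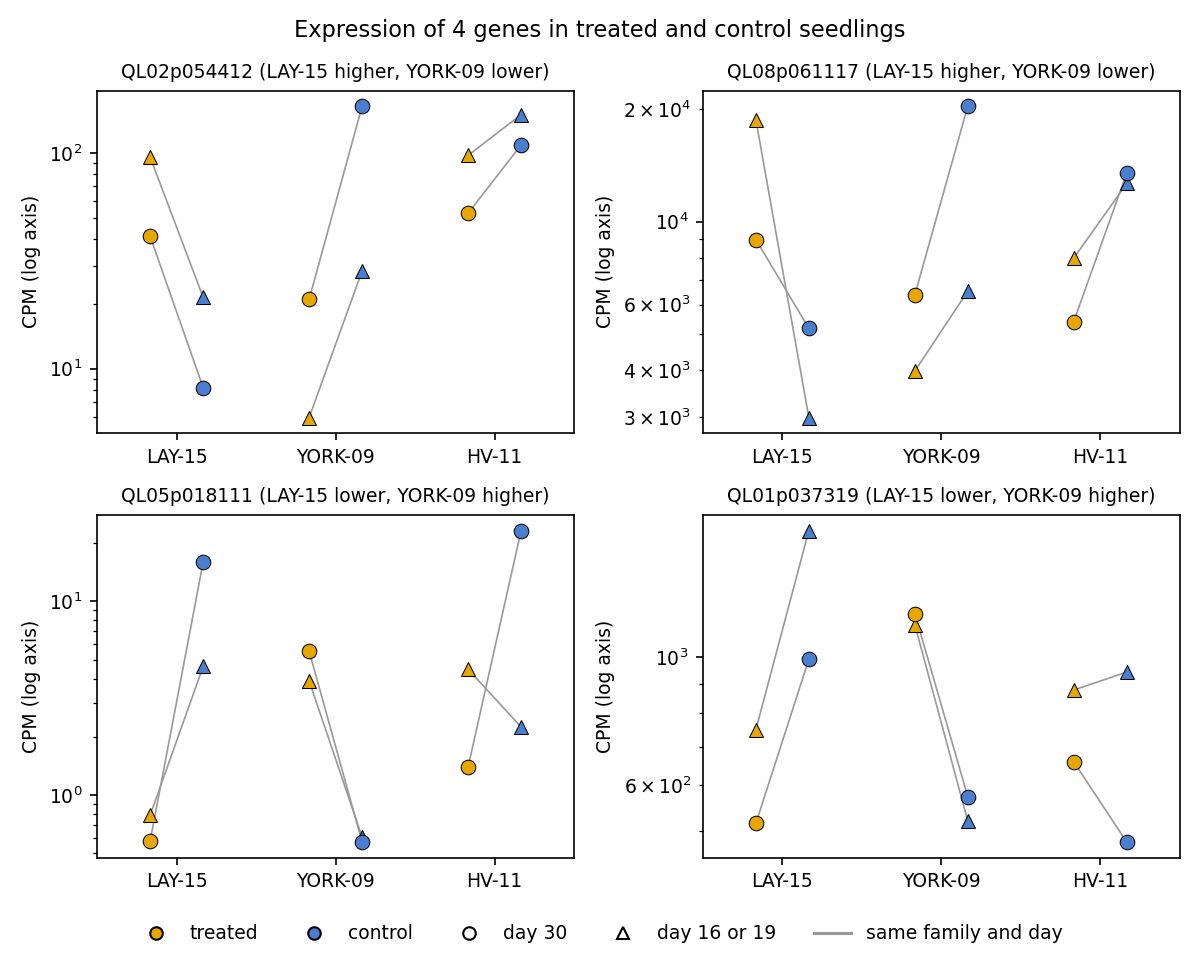
CPM (log axis) of QL02p054412, QL08p061117, QL05p018111 and QL01p037319 in each of the 12 seedlings, with treated seedlings left of controls in each family and a line joining seedlings of the same family and extraction day. In LAY-15 and YORK-09 the lines slope in opposite directions because the genes were chosen for it; in HV-11 both lines of QL02p054412 and QL08p061117 slope as in YORK-09, and those of the other genes cross directions.

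The next genes in rank are described without identifiers. The genes of rank 2 and rank 3 by fold among those with treated LAY-15 higher had smallest folds of 4.27 and 4.26. The gene of rank 2 had 8846 (day 30) and 6231 (day 19) counts in treated LAY-15 seedlings against 1987 and 12 in controls, and 2420 (day 30) and 972 (day 16) counts in treated YORK-09 seedlings against 18275 and 9471 in controls. The gene of rank 3 had 439 and 314 counts in treated LAY-15 seedlings against 7 and 2 in controls, and 10 and 4 in treated YORK-09 seedlings against 100 and 38 in controls. HV-11 split these 2 genes: that of rank 2 had 2872 (day 30) and 3365 (day 19) counts in treated seedlings against 13251 and 6548 in controls, the direction of YORK-09, and that of rank 3 had 89 and 447 counts in treated seedlings against 33 and 2 in controls, the direction of LAY-15. Both had an unadjusted edgeR p under 0.05 in HV-11 (0.031 and 0.049), and neither passed after adjustment. The gene of rank 4 lay at the limit of detection in 3 seedlings, with 0 counts in both LAY-15 controls and in the treated YORK-09 seedling of day 16; a count of 0 allows up to 3 counts.

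The next genes by mean CPM had smaller folds. Among genes with treated LAY-15 higher, those of ranks 2 to 4 averaged 2829, 2196 and 1058 CPM, and their smallest folds were 1.52, 1.57 and 1.79. In each of the 3 the control LAY-15-30 was the lowest or the second lowest seedling, with 546, 875 and 450 CPM. Among genes with treated LAY-15 lower, those of ranks 2 to 4 averaged 661, 655 and 291 CPM, with smallest folds of 1.59, 1.56 and 1.98. In HV-11 the log2 fold changes of these 6 genes ran from -0.53 to 0.11, with standard errors of 0.42 to 0.66.

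Most of the 447 genes were under 2-fold in at least 1 pair, 91 of the 122 and 277 of the 325. The smallest of the 4 folds had a median of 1.70 among the 122 genes with treated LAY-15 higher and of 1.66 among the 325 with treated LAY-15 lower, and it reached 2-fold in 31 and 48 genes. The last gene inside the threshold had a smallest fold of 1.504 in the first direction and 1.5001 in the second, and the nearest gene outside had 1.498 and 1.4998. The ratios in the pair LAY-15 day 19 were wider than those in LAY-15 day 30, among all 21522 genes as well. Their log2 ratios had quartiles of -0.77 and 0.49 at day 19, against -0.53 and 0.21 at day 30. The median log2 ratio of the 122 genes was 1.00 at day 30 and 1.69 at day 19 in LAY-15, and -1.28 at day 30 and -1.32 at day 16 in YORK-09. That of the 325 genes was -0.91 and -1.23 in LAY-15, and 0.96 and 1.18 in YORK-09. Comparing each treated seedling with both controls of its family, not only with that of its day, the ranges of treated and control CPM did not overlap in both families for 76 of the 122 genes (62.3%) and 244 of the 325 (75.1%), beside 1.9% and 6.35% of all 21522 genes in the same directions. As the rule used these seedlings, nothing is read from those shares. Of the genes with a mean of at least 1 CPM, 33 and 66 kept at least 1.5-fold in every such ratio.

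Without correction for gene length, the median mean level was 12.6 CPM for the 122 genes and 22.4 CPM for the 325 genes, beside 13.0 CPM for all 21522 genes. At least 100 CPM was reached by 14 (11.5%) and 59 (18.2%), beside 8.26% of all genes. At least 1 seedling had 3 counts or fewer for 42 of the 122 genes (34.4%) and 37 of the 325 (11.4%), beside 20.7% of all genes. All 447 genes were kept by edgeR's filter on low counts.

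The rule itself placed LAY-15 controls below the treated seedlings in the 122 genes and above them in the 325, so the following ranks of single seedlings are a description. LAY-15-30, the day 19 control of LAY-15, was the lowest of the 12 seedlings in 64 of the 122 genes (52.5%), beside 17.6% of all 21522 genes, and its median was 1.53 below the gene mean on the log2 scale. It was the highest of the 12 in 135 of the 325 genes (41.5%), beside 21.2% of all genes, with a median of 0.93 above the gene mean. The treated YORK-09-08 of day 16 was the highest in another 134 (41.2%), beside 18.0% of all genes, with a median of 0.92 above. The part of LAY-15-30 in the membership of these genes was not tested. The 122 genes held between 0.603% (LAY-15-30) and 3.96% (YORK-09-10, a control) of a seedling's counts, and QL08p061117 alone had 2989 and 20394 CPM in these seedlings. The 325 genes held between 0.995% (YORK-09-10) and 3.27% (LAY-15-30). The same seedlings stood at both ends for both directions, in reverse order.

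**Figure D2:**
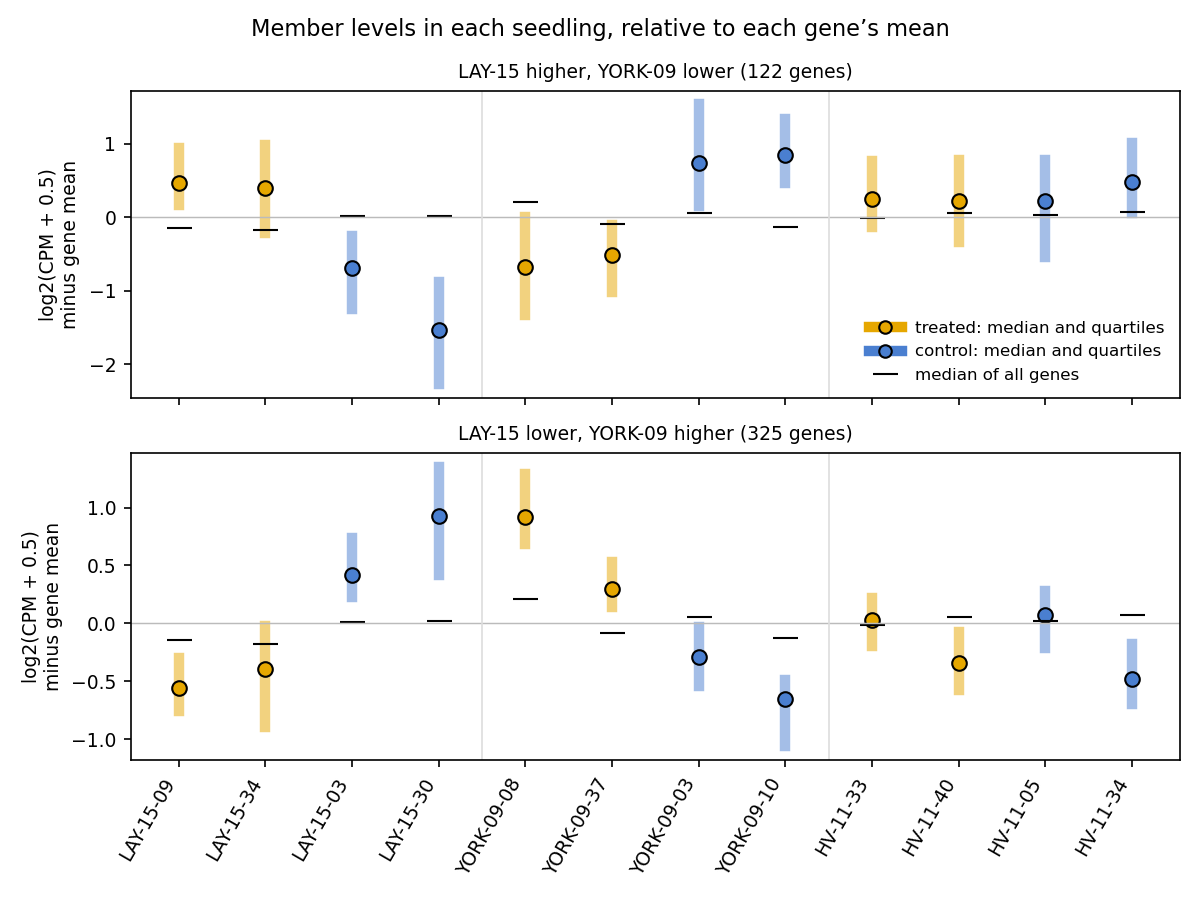
Deviation of log2(CPM + 0.5) from each gene's mean over the 12 seedlings, for the 122 genes with LAY-15 higher and YORK-09 lower (top) and the 325 with LAY-15 lower and YORK-09 higher (bottom). Points are medians over genes, thick bars quartiles and black dashes the median of all 21522 genes; treated seedlings stand left of controls in each family. LAY-15-30 lies farthest from 0 in the top panel (-1.53), and LAY-15-30 and YORK-09-08 lie highest in the bottom panel (0.93 and 0.92).

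The balance between the 2 directions depended on the scaling of the libraries. With column totals, the median log2 ratio of all 21522 genes was -0.13 (day 30) and -0.19 (day 19) in LAY-15, and 0.03 (day 30) and 0.09 (day 16) in YORK-09, so a typical gene was already lower in treated LAY-15 seedlings. With TMM scaling, which centres the typical gene, 208 genes had treated LAY-15 higher with treated YORK-09 lower and 191 had the reverse, and with median-ratio size factors there were 211 and 186. Of the 447 genes, 312 belonged to the set under TMM scaling, 121 of the 122 and 191 of the 325. QL02p054412, QL08p061117, QL05p018111 and QL01p037319 were among them. The excess of genes with treated LAY-15 lower was thus not kept when the typical gene was centred.

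The opposite shift was more common than a shared one between LAY-15 and YORK-09, and not between the other families. By the same fold rule, 447 genes went in opposite directions in LAY-15 and YORK-09 and 141 in the same direction (70 higher and 71 lower in treated seedlings of both). For LAY-15 with HV-11 the counts were 133 opposite and 201 the same, and for HV-11 with YORK-09 they were 118 opposite and 210 the same. TMM scaling gave 399 and 129, 125 and 224, and 122 and 202 in that order. These are counts of genes in 2 pairs per family, and the differences between them were not tested. The 122 genes made up 10.98% of the 1111 genes at least 1.5-fold higher in both treated LAY-15 seedlings and 10.4% of the 1177 lower in both treated YORK-09 seedlings, beside the 5.47% and 5.16% of all 21522 genes that were lower in YORK-09 and higher in LAY-15. The 325 genes made up 17.3% of the 1874 lower in both treated LAY-15 seedlings, beside the 6.03% of all genes higher in YORK-09. They made up 25.1% of the 1297 higher in both treated YORK-09 seedlings, beside the 8.71% of all genes lower in LAY-15. All these shares use the ratios that chose the genes, with column totals, and are a description without a test. TMM scaling made the counts 208 and 191 in place of 122 and 325.

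Directions that disagreed within a family were frequent as well. In all, 1883 genes differed by at least 1.5-fold in each of the 4 pairs of LAY-15 and YORK-09. The 4 patterns with 1 direction in each family held 588 of them, and the 12 patterns in which the pairs of a family disagreed held 1295. The mixed patterns ran from 40 to 243 genes, with a median of 92. The 122 genes were exceeded by 3 mixed patterns and the 325 genes by 0. Under TMM scaling, with mixed patterns of 40 to 230 genes (median 99), the counts of 208 and 191 were each exceeded by 2 mixed patterns. The set joins a pattern and its mirror, so with the treatment labels exchanged within pairs its size would be the sum of another pattern and its mirror. The 6 sums of mixed patterns ran from 105 to 328 genes and the sum of the same-direction patterns was 141, all below 447. Under TMM scaling they ran from 121 to 332 and the same-direction sum was 129, all below 399. These sums are a description, with no test.

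**Figure D3:**
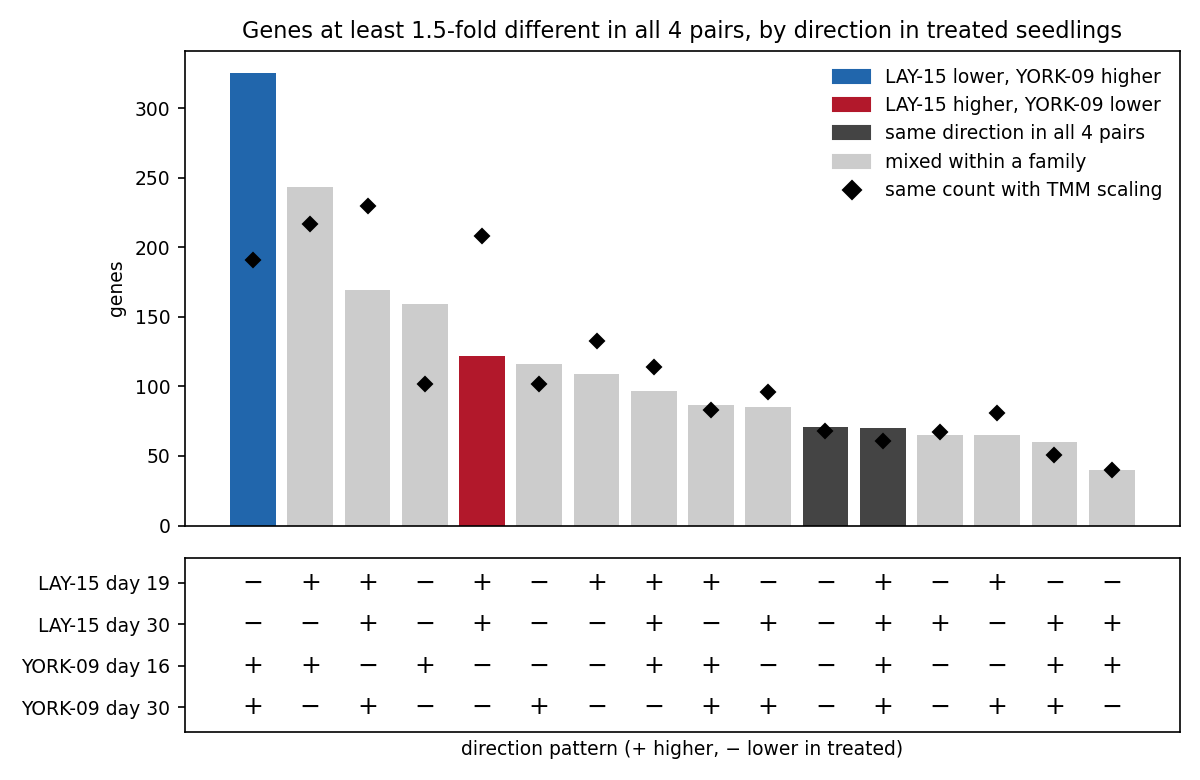
Number of genes at least 1.5-fold different in all 4 pairs of LAY-15 and YORK-09, for each of the 16 combinations of direction shown under the bars (+ higher, − lower in the treated seedling). Bars use column totals and diamonds TMM scaling; the 325 genes with LAY-15 lower form the tallest bar, while under TMM scaling the bars of 325 and 122 genes become 191 and 208, and mixed patterns reach 230.

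HV-11 was set beside the 447 genes as the family whose ratios the rule did not use. Its seedlings entered only the mean CPM. At least 1.5-fold in both HV-11 pairs, treated seedlings were higher for 10 of the 122 genes and lower for another 10 (8.20% each), beside 4.1% and 3.48% of all 21522 genes. Of the 325 genes, 10 were higher (3.08%) and 5 lower (1.54%). The shares of the 122 genes thus lay above those of all genes in both directions, and those of the 325 below. In total 15 genes followed LAY-15 and 20 followed YORK-09, a difference that was not tested. Of the 325 genes, 200 (61.5%) stayed within 1.5-fold in both HV-11 pairs, beside 41.6% of all genes and 19 (15.6%) of the 122 genes. The groups also differed in spread between seedlings. The median dispersion in the HV-11 fit was 0.24 for the 325 genes, 0.34 for the 122 and 0.31 for all genes tested. Whether the spread set these shares was not tested. The median of the mean HV-11 log2 ratio was -0.13 for the 122 genes and 0.07 for the 325 genes, beside -0.03 for all genes.

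No gene passed edgeR's test of treated against control HV-11 seedlings (0 of 23692 tested, 0.0%; smallest adjusted p = 0.714, and 0.301 to 1.00 over the alternatives), and 603 had an unadjusted p under 0.05, 344 higher (1.45%) and 259 lower (1.09%) in treated seedlings. Among the 122 genes, 5 were higher and 5 lower at that unadjusted level, and among the 323 of the 325 that could be tested, 3 were higher and 2 lower. DESeq2 called 130 genes (0.546%), of which 2 were among the 447. The call among the 122 genes had 14 (day 30) and 4 (day 19) counts in treated HV-11 seedlings against 225 and 75 in controls, a DESeq2 log2 fold change of -3.98 (SE 1.03, adjusted p = 0.025). In YORK-09 it had 12 (day 30) and 111 (day 16) counts in treated seedlings against 218 and 370 in controls, and in LAY-15 it was near the limit, with 9 and 5 counts in treated seedlings against 1 and 0 in controls. The call among the 325 genes had 41 and 57 counts in treated HV-11 seedlings against 444 and 265 in controls (log2 fold change -2.76, SE 0.62, DESeq2 adjusted p = 0.0032). It had 75 (day 30) and 457 (day 19) counts in treated LAY-15 seedlings against 442 and 1066 in controls, the same direction as HV-11, and 86 (day 30) and 87 (day 16) in treated YORK-09 seedlings against 22 and 13 in controls. With the extraction-day pairs as a block, DESeq2 called 100 genes, 1 of them among the 447, and edgeR 0.

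In HV-11 most of the 325 genes were lower at the later extraction day. This comparison was chosen after the values were seen, and its seedlings took no part in the ratios of the rule. In both treatments 196 of the 325 genes (60.3%) were lower at day 30 than at day 19, beside 20.7% of all genes and 18 of the 122 genes (14.8%). At least 1.5-fold lower in both treatments were 61 of the 325 genes (18.8%) and 3 of the 122 (2.46%), beside 3.64% of all genes. At least 1.5-fold higher were 21 (6.46%) and 12 (9.84%), beside 8.53%. The median log2 ratio of day 30 over day 19 for the 325 genes was -0.38 in treated and -0.53 in control HV-11 seedlings, beside 0.08 and 0.03 for all genes. Under TMM scaling 209 (64.3%) of the 325 genes were lower in both treatments, beside 26.6% of all genes. A day is also a pair of different seedlings, so day and seedling cannot be told apart.

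**Figure D4:**
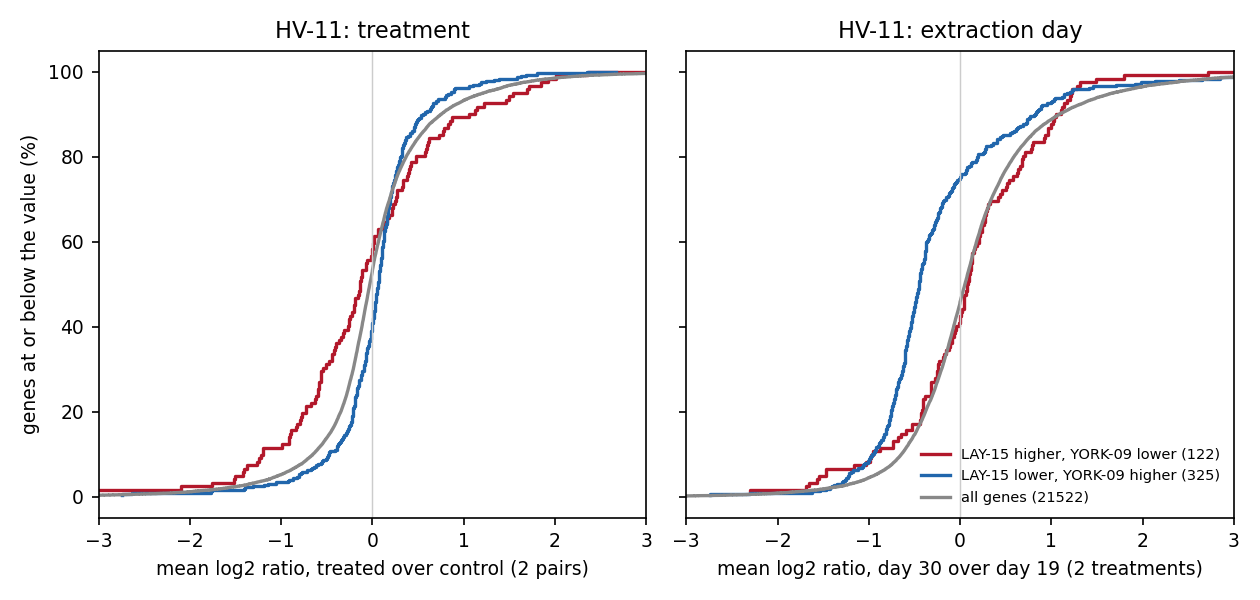
Cumulative share of genes (%) by mean log2 ratio in HV-11, for treated over control seedlings (left, mean of 2 pairs) and for day 30 over day 19 (right, mean of 2 treatments), cut at -3 and 3. On the left the 3 curves cross near 0 and the curve of the 325 genes is the steepest; on the right the 325 genes lie left of all genes, while the 122 genes stay close to them.

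The mean of day 30 was also set against days 16 and 19 over all 12 seedlings, fitted with family by treatment as groups. The HV-11 seedlings compared above are among the 12, so this partly restates their result. The edgeR test called 0 of 23791 genes (0.0%; smallest adjusted p = 0.981), with 786 at an unadjusted p under 0.05, 322 higher (1.35%) and 464 lower (1.95%) at day 30. Of the 325 genes, 91 reached that unadjusted level and all 91 were lower at day 30, and the median log2 fold change was -0.39. Of the 122 genes, 8 reached it, 7 of them higher at day 30, with a median of 0.33. DESeq2 called 91 genes (0.382%), 19 of them among the 447, all 19 being lower at day 30 and among the 325. Without both LAY-15 seedlings of day 19, 29 of the 325 genes were at the unadjusted level, all lower at day 30, and 484 of all genes (2.03%). This test is not wholly independent of the rule, because LAY-15-30 and YORK-09-08, early seedlings with extreme values in these genes, entered the ratios and the day means alike. For the genes of the set it is therefore a description. The gene with the smallest p had 21.2 CPM in treated and 36.2 CPM in control LAY-15 seedlings at day 30, against 38.8 and 118 CPM at day 19; 37.8 and 17.9 CPM in YORK-09 at day 30, against 71.1 and 27.6 CPM at day 16; and 17.7 and 16.2 CPM in HV-11 at day 30, against 44.1 and 36.7 CPM at day 19. That p was the smallest among the 325 genes (edgeR unadjusted p = 0.0013, adjusted p = 0.981). Each of the gene's 6 late seedlings was below the early seedling of the same family and treatment. The gene was picked by this test, so nothing is read from that.

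The families were also compared in level, averaged over both treatments, which asks whether the genes with opposite shifts differ between LAY-15 and YORK-09 apart from treatment. The edgeR test called 0 of 23791 genes (0.0%; smallest adjusted p = 0.0556), with 3211 at an unadjusted p under 0.05, of which 1864 (7.83%) were higher and 1347 (5.66%) lower in LAY-15. Of the 122 genes, 4 were higher and 12 lower in LAY-15 at that level, and of the 325 genes 19 were higher and 6 lower. The median log2 fold change was -0.37 for the 122 genes and 0.17 for the 325 genes. DESeq2 called 1198 genes (5.04%) and 20 of the 447, with 2 higher and 4 lower in LAY-15 among the 122 and 10 higher and 4 lower among the 325. Without both LAY-15 seedlings of day 19, the median log2 fold change was -0.18 for the 122 genes, -0.08 for the 325 and -0.06 for all genes. Neither share at the unadjusted edgeR level, with all 12 seedlings, exceeded the 13.5% of all genes. It was 13.1% for the 122 genes and 7.69% for the 325. As with the days, seedlings far from the rest entered both these means and the ratios, so for the set the comparison is a description. Day 16 held YORK-09 alone, so that family and that day cannot be told apart. The 2 DESeq2 calls of HV-11 were both called here as well: the one among the 122 genes was lower in LAY-15 (log2 fold change -5.96, SE 1.05) and the one among the 325 higher (3.62, SE 0.59).

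Identifiers carry a numbered prefix, and every prefix held some of the 447 genes. Among genes with treated LAY-15 higher, the share ran from 0.13% of the genes with prefix QL01 (2 of 1538) to 1.30% with prefix QL09 (19 of 1465), and the prefix QL93 (227 genes) had 0. Among genes with treated LAY-15 lower, it ran from 0.881% (QL93) to 1.96% (QL06). In the order of the table, 18 pairs of the 447 genes stood directly side by side, and 34 genes took part. Neighbouring pairs and their directions were not counted in other gene sets of this size, so these counts are a description. Both genes shared a direction in 16 pairs, 6 with treated LAY-15 higher and 10 with treated LAY-15 lower, and 2 pairs were opposite. One such pair was the gene of rank 2 by fold among those with treated LAY-15 lower and its neighbour. The ranked gene had 218 (day 30) and 41 (day 19) counts in treated LAY-15 seedlings against 767 and 232 in controls, and 335 (day 30) and 1152 (day 16) in treated YORK-09 seedlings against 65 and 350 in controls. Its neighbour had 86 and 10 counts in treated LAY-15 seedlings against 256 and 69 in controls, and 109 and 301 in treated YORK-09 seedlings against 21 and 105 in controls. The rule fixed much of that likeness, and the pair was chosen after its values were seen. The rule did not use the HV-11 ratios. In HV-11 the ranked gene had 106 (day 30) and 164 (day 19) counts in treated seedlings against 102 and 52 in controls. Its neighbour had 24 and 52 against 26 and 11. The gene called by DESeq2 in HV-11 among the 325 genes was likewise the neighbour of the gene of rank 4 by fold. Whether neighbouring genes share reads could not be checked, since the strand setting of the count is not given in the sources used here.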

How the data were processed

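Leaf RNA-seq libraries (TruSeq v2) of 12 seedlings were analysed. The authors trimmed reads with Cutadapt 2.3, aligned them with STAR 2.7.1 to the Quercus lobata genome, used SAMtools 1.9 to drop reads that mapped to several places and Picard 2.20.3 to drop platform duplicates, and deposited whole-number read counts per gene from HTSeq 0.11.1, without normalization. Removing multi-mapping reads lowers the counts of near-identical genes. The annotation version and strand setting are not given in the sources used here. All 12 columns matched a label and 0 were left out.

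The filterByExpr function kept 23791 genes (min.count 10, min.total.count 15), which were scaled by TMM (factors 0.879 to 1.18) and tested with edgeR 4.0.16 in R 4.3.3 (glmQLFit, glmQLFTest), with DESeq2 1.42.0 as the alternative, and Benjamini-Hochberg adjusted p-values under 0.05 were called. In HV-11, 23692 of the kept genes had counts and were tested. Standard errors were derived from the test statistic. P-values measure the spread between seedlings, of which there are 2 per group, extracted on different days. The main HV-11 test and the family comparison had no term for day, so their spread includes any effect of day. The scripts were tested on simulated data.

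The 447 genes, the comparisons and the genes described were chosen with earlier results of these data known. Identifiers are given for the gene with the largest smallest fold and for the gene with the highest mean CPM in each direction; the next 3 by each measure, the genes called and those at the threshold are described without. Which neighbouring pair and which gene by day to show was decided after their values were seen. The pairs come from the extraction day in the labels; the deviations of paired seedlings correlated by 0.044 to 0.499. Alternatives were other scalings, pseudocounts, folds and expression minimums, all ratios within a family, DESeq2, no count filter, the pairs as a block and each seedling left out in turn. The 2 LAY-15 seedlings of day 19 left out of the family comparison, the block in DESeq2, and TMM scaling of the family counts, patterns and HV-11 days were added after the data were seen. Columns of fold changes were not part of the table. Figures were drawn with matplotlib 3.10.9.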

Additional observations from a re-analysis of the deposited data

Results flagged for a closer look

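The 122 genes with treated LAY-15 seedlings higher and treated YORK-09 seedlings lower, and the 325 genes with the reverse, stand out because both pairs of a family moved one way and both pairs of the other family the opposite way. The genes were selected for that and the difference between the families was not tested. The mean log2 ratio of LAY-15 minus that of YORK-09 was 4.76 for QL02p054412, 2.92 for QL08p061117, -5.20 for QL05p018111 and -2.14 for QL01p037319, also selected for it and not tested. TMM scaling made the counts 208 and 191.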

How the results depend on the processing

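The counts of genes with treated LAY-15 higher, then with treated LAY-15 lower, were 122 and 325, and became 208 and 191 with TMM, 211 and 186 with median-ratio size factors, 357 and 869 at a lower fold limit, 31 and 48 at 2-fold, and 33 and 66 when every ratio of a family had to pass. Leaving out one seedling with its pair, so that 3 ratios decided, gave 269 to 501 and 556 to 804. Members past the fold in both HV-11 pairs, in the direction of LAY-15 then of YORK-09, were 15 and 20. They became 31 and 40 at the lower limit and 6 and 7 at 2-fold. With 1 HV-11 pair alone they were 69 to 79 and 90 to 96. The counts of all genes were not taken at these other settings, so nothing is read from the difference. With TMM, 88 of the 325 genes (27.1%) in place of 61 were at least 1.5-fold lower at day 30 in both HV-11 treatments. Of the 122 genes there were 5 (4.10%) in place of 3. Of all genes there were 1069 (4.97%) in place of 784 (3.64%), so the number rose among all genes too.

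For treatment in HV-11, edgeR called 0 genes in every fit with all HV-11 seedlings, with or without the replicate block. Under the block 10 of the 447 genes had an unadjusted p under 0.05, beside 2.42% of all genes. Without the block there were 15, beside 2.55% of all genes. Leaving out an HV-11 seedling moved the numbers among the 447 and among all genes. DESeq2 called 130 genes, 2 of them among the 447, and with the replicate block 100 and 1. Without the block, 23 of the 447 were at the unadjusted level in DESeq2, beside 3.76% of all genes. Between LAY-15 and YORK-09, DESeq2 called 1198 genes and 20 of the 447. In edgeR, the calls were 17 without the count filter, 1 without both LAY-15 seedlings of day 19, and 0 to 5 with each seedling left out (5 without the day 30 control of YORK-09), none of these among the 447. Of the 447, 41 were at the unadjusted level, 25 to 72 with a seedling left out (25 without LAY-15-30, 26 without LAY-15-34, 27 without YORK-09-03 and 72 without LAY-15-03) and 21 without both LAY-15 seedlings of day 19. For day 30 against earlier days, DESeq2 called 91 genes and 19 of the 447. Of the 447, 99 were at the unadjusted level, 65 to 102 with a seedling left out (65 without LAY-15-30 and without LAY-15-03) and 38 without both LAY-15 seedlings of day 19. The share of all genes at that level also fell without LAY-15-30, without LAY-15-03 and without both LAY-15 seedlings of day 19. The HV-11 log2 fold change of QL05p018111 ran from -3.16 to 0.40 with a seedling left out and that of QL01p037319 from -0.30 to 0.78, with -0.15 without the treated seedling of day 19. QL02p054412 and QL08p061117 stayed below 0 in these fits. The cause of these shifts was not tested. With 2 seedlings per group, the precision is set by the spread between seedlings and not by the depth, except for genes with few counts.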
